A study of Mus musculus with 12 samples.

Results

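The genes described here make, sense and destroy prostaglandins, and 10 of them were followed among the 54532 genes of the deposited table by their symbols. They were Ptgs1, Ptgs2, Ptges, Ptges2, Ptgis, Hpgd, Hpgds, Tbxas1, Ptger2 and Ptger4. All 10 passed the filter on low values, which kept 24102 genes with an FPKM (fragments per kilobase of transcript, scaled to library size) of at least 0.1 in at least 3 of 12 libraries. The libraries were made from RNA of colon tissue, and 4 groups had 3 libraries each. The Tmem173fl/fl genotype (WT in the labels) carried loxP-flanked alleles of Tmem173, the gene of the innate DNA sensor adaptor STING, and no Cre. Tmem173iΔmye mice (genotype CRE in the labels, Tmem173fl/fl Lyz2-CreERT2) carried in addition a tamoxifen-inducible Cre driven by Lyz2, a myeloid gene, so that by design other cells of the colon kept Tmem173. Per the study's methods, mice of both genotypes had 5 tamoxifen injections and those given colitis were 6 to 8 weeks old. In each genotype 1 group drank dextran sodium sulfate (DSS), a polymer that injures the colonic epithelium, for 7 days and became colitic, and the other drank water.

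Prostaglandins are short-lived lipid signals. Phospholipases free arachidonic acid from membranes, the cyclooxygenases encoded by Ptgs1 (largely constitutive) and Ptgs2 (inducible) turn it into a common precursor, and terminal synthases make the active products: prostaglandin E by Ptges and Ptges2, prostacyclin by Ptgis, prostaglandin D by Hpgds and thromboxane by Tbxas1. Hpgd starts the breakdown of prostaglandin E, and Ptger2 and Ptger4 encode receptors for it that raise cyclic AMP. In the colon, prostaglandin E is known for its part in epithelial repair, in inflammation and in tumour growth, and Hpgd is abundant in the surface epithelium.

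To show what lies before the starts of the inducible cyclooxygenase, the inducible prostaglandin E synthase and the breakdown enzyme, the 250 bases upstream were taken from RefSeq (GRCm38.p6), where 9 of the 10 symbols had an entry. The Ptgs2 stretch lies at chr1:150099781-150100030 on the plus strand, that of Ptges at chr2:30903298-30903547 on the minus strand and that of Hpgd at chr8:56294302-56294551 on the plus strand. The RefSeq starts of Ptges and Hpgd are not those of the deposited gene spans given further on. A further 26 bases just after the Ptgs2 start, at chr1:150100035-150100060, are given because 2 searched motifs overlap there. Capitals mark TTGCGCAA (a palindrome known as a C/EBP motif) in Ptgs2, GGGCGG (a GC box, read as CCGCCC on the other strand) in Ptges and Hpgd, and ACGTCA (a cyclic AMP response element core) overlapping CACGTG (an E-box) in the short stretch.
Ptgs2: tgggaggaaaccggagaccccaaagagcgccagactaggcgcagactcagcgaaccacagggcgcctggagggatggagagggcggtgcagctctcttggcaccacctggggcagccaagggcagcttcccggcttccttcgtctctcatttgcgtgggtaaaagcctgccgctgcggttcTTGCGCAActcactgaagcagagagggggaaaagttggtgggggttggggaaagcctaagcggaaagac
Ptgs2, after the start: tcaccactACGTCACGTGgagtccgc
Ptges: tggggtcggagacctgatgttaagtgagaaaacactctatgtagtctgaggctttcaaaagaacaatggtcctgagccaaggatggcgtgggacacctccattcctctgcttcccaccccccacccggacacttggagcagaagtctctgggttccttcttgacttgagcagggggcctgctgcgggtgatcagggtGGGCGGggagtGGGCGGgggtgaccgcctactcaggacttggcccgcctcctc
Hpgd: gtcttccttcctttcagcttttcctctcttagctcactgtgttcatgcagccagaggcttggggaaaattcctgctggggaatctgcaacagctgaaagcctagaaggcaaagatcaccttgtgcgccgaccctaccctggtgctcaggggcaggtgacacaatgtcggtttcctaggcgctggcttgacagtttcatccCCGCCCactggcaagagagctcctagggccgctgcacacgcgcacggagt
Windows from 250 bases before to 50 after a start were searched on both strands for these 4 motifs, for TATAAA and for the NF-kB motif. TTGCGCAA lay at -69 to -62 of Ptgs2 and in 60 of 32851 windows of all genes (0.183%). ACGTCA was in 7.51% of all windows, CACGTG in 7.15% and GGGCGG in 35.7%. Among the 9 windows, GGGCGG was found in 4 (Ptgs2, Ptges, Hpgd and Ptger4), CACGTG in 2 (Ptgs2 and Ptges2), TATAAA in 2 (Hpgd and Tbxas1, against 13.6% of all) and the NF-kB motif in 0 (4.51% of all). These matches describe letters, and binding was not measured.

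Library totals ran from 13823237 to 18718915 counts, and the 10 genes had between 22 (Ptger2) and 10059 (Ptgs2) counts in a library. Replicate 5 of the colitic Tmem173iΔmye group stood apart on the second principal component, at -113.9 against -26.5 to 31.6 for the other 11 libraries. On the first component, which held 39% of the variance, it lay at -32, on the side of the 6 untreated libraries (-72.95 to -47.55) and apart from the other 5 colitic ones (15.6 to 119.8). It was also 1 of 3 libraries with the X-inactivation transcript Xist above 1 FPKM, beside replicate 3 of both untreated groups. The targeted gene did not differ detectably in the colon RNA of colitic mice, at a log2 fold change of -0.28 (standard error, SE, 0.26; edgeR adjusted p 0.602), so the labels could not be checked by it at the level of the gene. Some loci overlap other genes, and the use of strand in counting is not given in the sources used here. On the opposite strand Hipk2, with 176 to 1195 counts, overlaps Tbxas1, Ttc33, with 158 to 364 counts, overlaps Ptger4, and Gm43621, with 1 to 38 counts, overlaps Ptgs1. On the same strand Gm45540, with 48 to 178 counts, overlaps Hpgd. Each of the other overlapping genes had at most 20 counts in a library.

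In untreated Tmem173fl/fl colon the breakdown enzyme outweighed the synthases per length of transcript. Hpgd was at 108.7 ± 17.3 FPKM (SD, n = 3), above Ptger4 at 9.56 ± 2.57, Ptgs1 at 6.87 ± 0.494, Ptges2 at 4.85 ± 0.182 and Ptgs2 at 3.0 ± 0.716. Ptgis, Ptges and Hpgds followed at 2.70 ± 0.201, 2.48 ± 0.195 and 2.09 ± 0.271 FPKM, and Tbxas1 and Ptger2 were lowest at 0.612 ± 0.0603 and 0.338 ± 0.0755. In colitic Tmem173fl/fl mice the order changed, and Ptgs2 had the highest mean (80.7 FPKM), followed by Hpgd (36.1), Ptges (34.8) and Ptgs1 (29.0). The first places overlapped there, because replicate 2 of that group had 28.4 FPKM of Ptgs2 and 30.9 of Hpgd. In colitic Tmem173iΔmye mice Hpgd again led, at 71.9 ± 20.7 FPKM, and Ptgs1 (12.3) and Ptgs2 (8.46) came next.

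**Figure D1:**
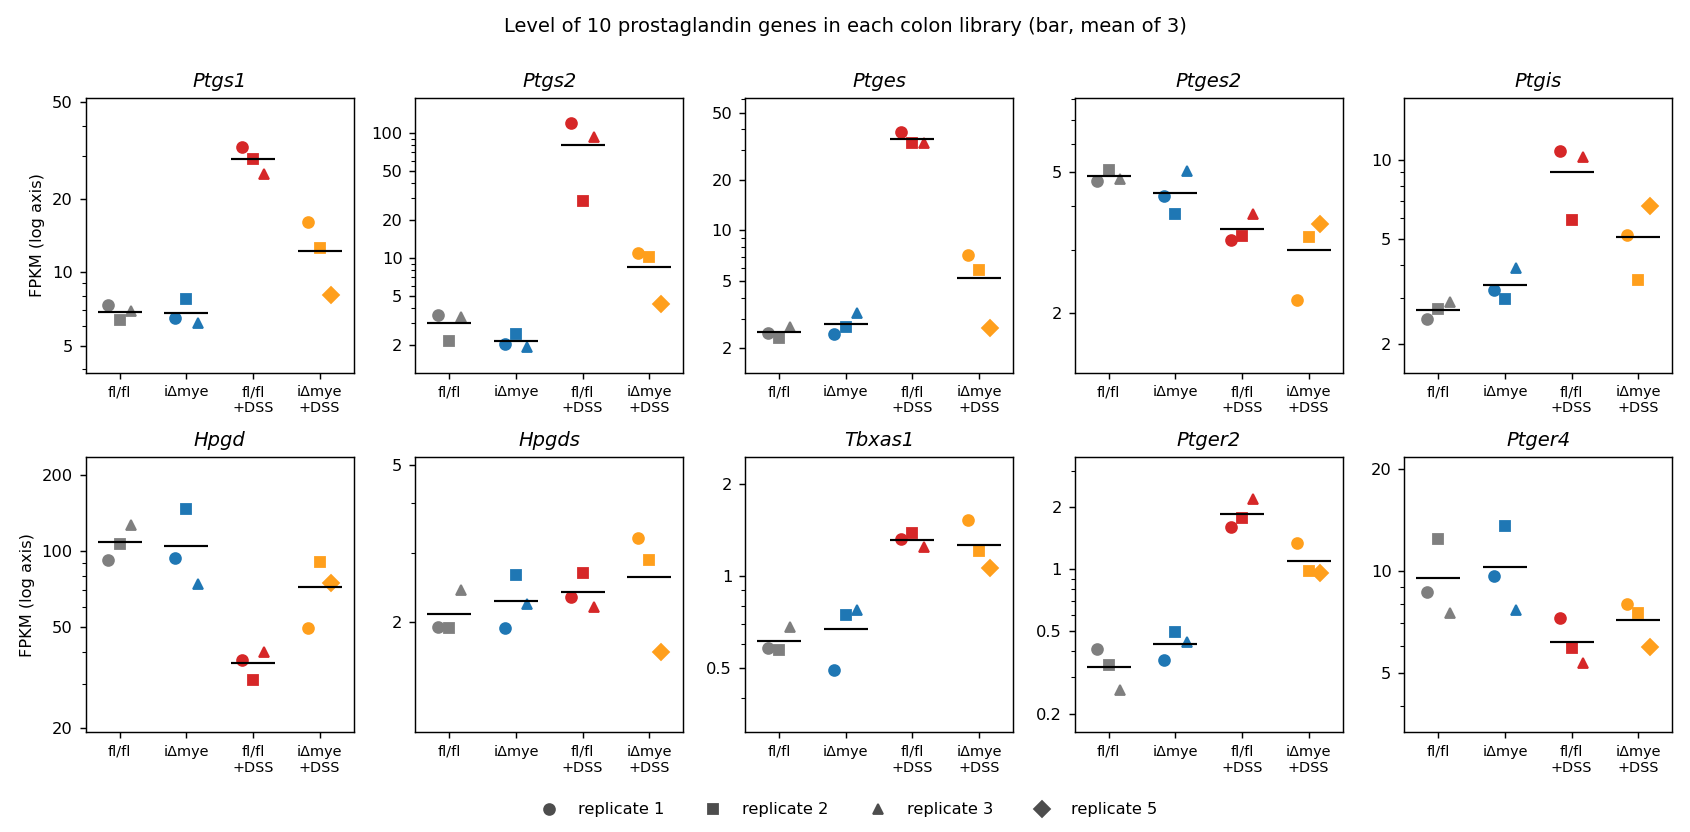
FPKM (log axis) of each gene in the 12 libraries, by group: untreated Tmem173fl/fl (fl/fl) and Tmem173iΔmye (iΔmye) mice and those given DSS. Each point is 1 library, its shape the replicate number, and the bar the mean of 3. Ptgs1, Ptgs2 and Ptges were higher in all 3 colitic Tmem173fl/fl libraries than in the other 9, and Hpgd was lower.

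The first comparison asked what colitis did to these genes in Tmem173fl/fl mice. A gene was called when edgeR's quasi-likelihood test gave a Benjamini-Hochberg adjusted p under 0.05 and a log2 fold change of at least 1 in size. By that rule 6 of the 10 genes rose (Ptgs1, Ptgs2, Ptges, Ptgis, Tbxas1 and Ptger2) and Hpgd fell. Of all genes tested, 22.5% were called, 14.9% as higher and 7.61% as lower. The median log2 fold change was 1.44 over the 10 genes and 0.03 over all genes tested. By adjusted p alone 9 of the 10 passed, beside 35.4% of all genes. The FPKM ranges of the groups did not overlap for 9 of the 10 (48.7% of all genes), with 6 higher (25.1% of all) and 3 lower (23.6% of all), and they overlapped for Hpgds.

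Both cyclooxygenase genes rose with DSS in Tmem173fl/fl mice. Ptgs2 (ENSMUSG00000032487, GRCm38 chr1:150100031-150108227, plus strand) had 3.47, 2.17 and 3.35 FPKM in the untreated libraries and 120.2, 28.4 and 93.5 in the colitic ones. Every colitic library was above every untreated one, but replicate 2 lay far under the other two. The log2 change came to 4.76 ± 0.49 (SE), or 27.1-fold (edgeR adjusted p 5.903e-05). Ptgs1 (ENSMUSG00000047250, chr2:36230426-36252272, plus strand) was at 7.33, 6.35 and 6.94 FPKM without DSS and at 32.6, 29.2 and 25.4 with it. Its colitic libraries spread little, and the log2 change came to 2.10 ± 0.14 (SE, edgeR adjusted p 5.345e-06).

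Among the terminal synthases the 2 genes for prostaglandin E differed in their response. Ptges (ENSMUSG00000050737, chr2:30889471-30929863, minus strand), the inducible microsomal enzyme, had 2.47, 2.30 and 2.69 FPKM untreated and 38.3, 33.2 and 32.8 colitic. The groups were far apart and tight, with a log2 change of 3.82 ± 0.15 (SE), or 14.1-fold (edgeR adjusted p 4.235e-07). Ptges2 (ENSMUSG00000026820, chr2:32395896-32405772, plus strand) ran from 4.71 to 5.06 FPKM untreated and from 3.20 to 3.80 colitic. Its ranges did not overlap, yet the log2 fold change of -0.48 (SE 0.15, edgeR adjusted p 0.03128) was under the size asked of a call. In a ratio chosen after the values were seen, Ptges stood at 0.454 to 0.562 of Ptges2 in untreated Tmem173fl/fl libraries and at 8.63 to 12 of it in colitic ones.

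Of the other synthases, Ptgis (ENSMUSG00000017969, chr2:167191805-167240604, minus strand) was at 2.49, 2.72 and 2.89 FPKM untreated and at 10.8, 5.92 and 10.3 colitic, again with replicate 2 lowest. The log2 change came to 1.75 ± 0.24 (SE, edgeR adjusted p 0.0003893). Tbxas1 (ENSMUSG00000029925, chr6:38875404-39084585, plus strand) went from 0.573 to 0.682 FPKM up to 1.24 to 1.38, a log2 change of 1.12 ± 0.20 (SE, edgeR adjusted p 0.001677). With limma the rise was under the size for a call, at 0.99 on log2(FPKM + 0.1) and 0.52 on log2(FPKM + 1). Hpgds (ENSMUSG00000029919, chr6:65117293-65144908, minus strand) was at 1.93 to 2.41 FPKM and at 2.18 to 2.66, and a difference was not detectable (log2 fold change 0.21, SE 0.18, edgeR adjusted p 0.4264).

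Hpgd (ENSMUSG00000031613, chr8:56294585-56321043, plus strand) fell. Its untreated libraries had 92.3, 107.1 and 126.7 FPKM and its colitic ones 37.2, 30.9 and 40.1. No colitic library came near an untreated one, and the log2 change came to -1.58 ± 0.16 (SE, edgeR adjusted p 6.664e-05). The receptors differed from each other. Ptger2 (ENSMUSG00000037759, chr14:44988195-45003820, plus strand) had 0.411, 0.343 and 0.260 FPKM untreated and 1.6, 1.78 and 2.18 colitic, a log2 change of 2.47 ± 0.27 (SE, edgeR adjusted p 8.906e-05). Ptger4 (ENSMUSG00000039942, chr15:5206661-5244187, minus strand) ran from 7.53 to 12.5 FPKM untreated and from 5.35 to 7.26 colitic, with a log2 fold change of -0.61 (SE 0.19, edgeR adjusted p 0.03413) that was too small for a call. Ptger4 thus stood at 21.1 to 36.3 times Ptger2 in untreated libraries and at 2.45 to 4.53 times in colitic ones, in a ratio chosen after the values were seen.

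The second comparison asked the same of Tmem173iΔmye mice, and Ptgs2 was the 1 gene of the 10 that was called (2.08% of all genes tested were called, 1.48% as higher and 0.597% as lower). Ptgs2 had 2.06, 2.47 and 1.94 FPKM untreated and 10.9, 10.2 and 4.27 colitic. The ranges did not overlap, and the log2 change came to 1.95 ± 0.33 (SE), or 3.88-fold (edgeR adjusted p 0.01776). This call was lost when any 1 of the 5 libraries other than replicate 5 of the colitic group was left out, with log2 fold changes from 1.74 to 2.30 and adjusted p from 0.0001342 to 0.1414 over the 6 edgeR fits. Over all genes the 5 fits without that call found 51 to 372, against 501 in the main fit. The Ptgs2 call was lost with limma too (adjusted p 0.1206 on log2(FPKM + 0.1) and 0.1417 on log2(FPKM + 1)). Ptgs1, at 6.52, 7.76 and 6.2 FPKM untreated and 16.1, 12.6 and 8.10 colitic, had a log2 fold change of 0.83 (SE 0.25, edgeR adjusted p 0.1443). Ptger2 went from 0.365 to 0.496 FPKM to 0.958 to 1.34, with a log2 fold change of 1.31 (SE 0.34, edgeR adjusted p 0.08216). It was called with DESeq2 (1.32, adjusted p 0.008673) and in 1 edgeR fit of all 12 libraries (1.31, adjusted p 0.01397). Both had ranges that did not overlap, as had Tbxas1 (0.90, SE 0.30, edgeR adjusted p 0.1746) and, downward, Ptges2 (-0.55, SE 0.26, edgeR adjusted p 0.336). That made 5 of 10 genes, beside 21.3% of all genes tested, with 4 higher (12.1% of all) and 1 lower (9.25% of all).

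Ptges, with 2.44, 2.68 and 3.25 FPKM untreated and 7.13, 5.85 and 2.65 colitic, overlapped through replicate 5 (log2 fold change 0.88, SE 0.34, edgeR adjusted p 0.2446). With a block for the replicate number Ptges was called (1.31, edgeR adjusted p 0.009528). Replicate 3 was untreated only and replicate 5 colitic only, so that fit drew the difference from replicates 1 and 2. Hpgd overlapped as well, at 94.3, 146.6 and 74.2 FPKM untreated and 49.9, 90.9 and 74.9 colitic (-0.56, SE 0.30, edgeR adjusted p 0.4085). The remaining genes had log2 fold changes of 0.60 (Ptgis, edgeR adjusted p 0.3794), 0.19 (Hpgds, 0.8054) and -0.54 (Ptger4, 0.2978). Within the colitic Tmem173iΔmye group replicate 5 was the lowest library for 7 of the 10 genes and the highest for Ptges2 and Ptgis. Without it, in an edgeR fit of 5 libraries, 4 genes were called: Ptgs2 at 2.30 (adjusted p 0.0001342), Ptgs1 at 1.08 (0.008922), Ptges at 1.23 (0.0109) and Ptger2 at 1.42 (0.03617). That fit called 1469 of all 24102 genes tested, against 501 with replicate 5 included.

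**Figure D2:**
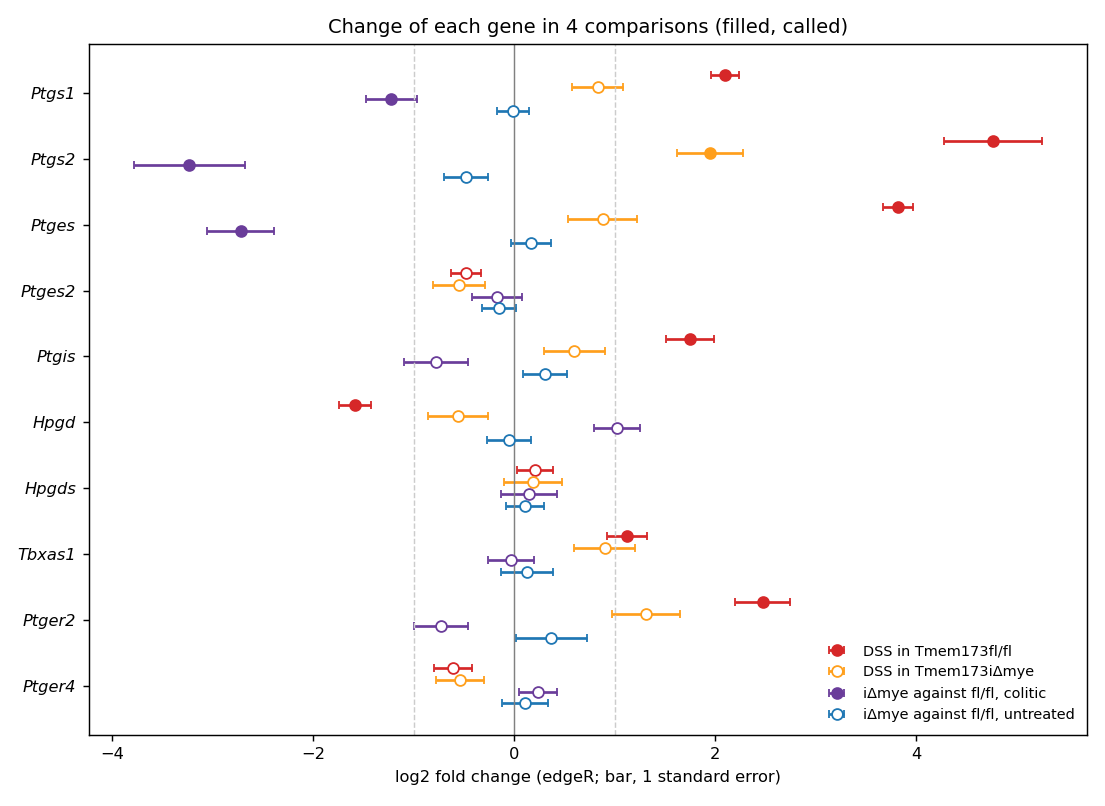
Log2 fold change of each gene from edgeR (points) with 1 standard error (bars) for DSS in each genotype and for Tmem173iΔmye against Tmem173fl/fl in untreated and in colitic mice, 3 libraries a group. Filled points were called, and dashed lines stand at 1 and -1. The DSS changes of Ptgs2 (4.76 and 1.95) and Ptges (3.82 and 0.88) lie furthest apart between genotypes.

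Without DSS the genotypes were not seen to differ. edgeR called 0 of the 10 genes and 0% of all genes tested, DESeq2 and limma called 0 of the 10 as well, and 0 of the 10 had an unadjusted p under 0.05, against 2.99% of all genes. Over all genes DESeq2 called 3, edgeR with no filter 68 and edgeR with the replicate block 94. The largest difference was that of Ptgs2, at 3.0 ± 0.716 FPKM in Tmem173fl/fl and 2.15 ± 0.277 in Tmem173iΔmye mice (log2 fold change -0.48, SE 0.22, edgeR adjusted p 1), and its ranges overlapped. Ptgis alone had ranges apart, 2.49 to 2.89 against 2.96 to 3.89 FPKM (0.31, SE 0.22), where 7.29% of all genes did. The median log2 fold change was 0.11 over the 10 genes.

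The third comparison set colitic Tmem173iΔmye mice against colitic Tmem173fl/fl mice. Ptgs1, Ptgs2 and Ptges were called lower and 0 genes higher (2.81% of all genes tested were called, 1.99% as lower and 0.822% as higher). The median log2 fold change was -0.45 over the 10 genes and 0.02 over all genes. Ranges did not overlap for 5 of the 10, and for 26.6% of all genes. Of the 10, 4 had lower ranges (15.8% of all genes) and Hpgd a higher one (10.8% of all). This comparison shares the colitic Tmem173fl/fl libraries with the first.

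Ptgs2 was at 120.2, 28.4 and 93.5 FPKM in colitic Tmem173fl/fl libraries and at 10.9, 10.2 and 4.27 in colitic Tmem173iΔmye ones. The lowest of the former was above the highest of the latter, and the log2 change came to -3.23 ± 0.55 (SE), or 9.37-fold lower (edgeR adjusted p 0.02643). Ptges, at 38.3, 33.2 and 32.8 against 7.13, 5.85 and 2.65 FPKM, was 6.57-fold lower (-2.72, SE 0.33, edgeR adjusted p 0.01239). Ptgs1, at 32.6, 29.2 and 25.4 against 16.1, 12.6 and 8.10 FPKM, had a log2 change of -1.22 ± 0.25 (SE, edgeR adjusted p 0.04222). All 3 of these genes kept ranges that did not overlap. The calls depended on single libraries, as did those over all genes (678 in the main fit). Without replicate 1 of colitic Tmem173fl/fl mice 0 of the 3 were left (27 over all genes). Without replicate 2 of colitic Tmem173iΔmye mice 0 were left too (46 over all genes). Ptges alone was left without replicate 3 of colitic Tmem173fl/fl mice (123 over all genes). Ptgs1 lost its call also without replicate 2 of that group (204 over all genes). With limma on log2(FPKM + 0.1) and log2(FPKM + 1) the calls of Ptgs2 (adjusted p 0.08142 and 0.07457) and Ptgs1 (0.0843 and 0.07625) were lost and that of Ptges was kept. Without replicate 5 all 3 kept it, at -2.91 (Ptgs2, edgeR adjusted p 0.04726), -2.40 (Ptges, 0.005672) and -1.0 (Ptgs1, 0.04613). Over the 6 fits that left out a library the log2 fold changes ran from -3.62 to -2.81 for Ptgs2, from -3.02 to -2.40 for Ptges and from -1.47 to -1.0 for Ptgs1. With a block for the replicate number the log2 fold change of Ptgs2 was smaller, at -2.46 (edgeR adjusted p 0.01265). Replicate 3 was Tmem173fl/fl only and replicate 5 Tmem173iΔmye only, so that fit drew the difference from replicates 1 and 2.

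Hpgd lay the other way, at 37.2, 30.9 and 40.1 FPKM in colitic Tmem173fl/fl and 49.9, 90.9 and 74.9 in colitic Tmem173iΔmye libraries. The ranges did not overlap and the log2 change came to 1.02 ± 0.23 (SE), but edgeR's adjusted p of 0.05519 missed the threshold. Over the other settings its adjusted p ran from 0.003652 with DESeq2 to 0.126, and 3 of 7 settings called it. It was also called without replicate 1 of colitic Tmem173iΔmye mice (1.22, edgeR adjusted p 0.01751). Ptger2, at 1.6, 1.78 and 2.18 against 1.34, 0.981 and 0.958 FPKM, had ranges apart and a log2 fold change of -0.73 (SE 0.27, edgeR adjusted p 0.1774). Ptgis, at 10.8, 5.92 and 10.3 against 5.21, 3.49 and 6.67 FPKM, overlapped (-0.78, SE 0.32, edgeR adjusted p 0.2256). Tbxas1 was at 1.31 ± 0.0721 and 1.27 ± 0.237 FPKM, a log2 fold change of -0.03 (SE 0.23, edgeR adjusted p 0.9629). Ptger4 (0.24, SE 0.19), Hpgds (0.15, SE 0.28) and Ptges2 (-0.17, SE 0.25) had edgeR adjusted p from 0.5305 to 0.8063, and their ranges overlapped.

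Whether DSS moved a gene by a different amount in the 2 genotypes was tested by the interaction over all 12 libraries, which called Ptges, Ptgs2 and Ptgs1 (2.55% of all genes tested were called, 1.61% with a negative and 0.934% with a positive interaction). The DSS change of Ptges was smaller by 2.87 on the log2 scale (interaction -2.87, SE 0.38, edgeR adjusted p 0.003966). For Ptgs2 the interaction was -2.74 (SE 0.62, edgeR adjusted p 0.03327) and for Ptgs1 -1.20 (SE 0.29, edgeR adjusted p 0.04765). Ptges kept this call in each of 12 fits that left out a library, from -3.15 to -2.58 with adjusted p from 0.0007071 to 0.01574. Ptgs2 kept it in 3 of the 12 (adjusted p from 0.006176 to 0.08087) and Ptgs1 in 1 of the 12 (from 0.00704 to 0.1121). Over all genes the 12 fits called 267 to 1728, against 614 in the main fit. With limma the Ptgs2 call was lost at both pseudocounts (adjusted p 0.07594 and 0.05659) and the Ptgs1 call at 0.1 (0.06129). Ptgis (-1.08, SE 0.39, edgeR adjusted p 0.1593), Ptger2 (-1.09, SE 0.39, 0.1586) and Hpgd (1.09, SE 0.37, 0.1363) had interactions of more than 1 in size that were not called. Tbxas1 (-0.15), Ptger4 (0.14), Hpgds (0.05) and Ptges2 (0.00) had interactions near 0 with SEs from 0.29 to 0.34.

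The balance of inducible to constitutive cyclooxygenase was read from the Ptgs2 to Ptgs1 ratio of FPKM in each library. It was 0.473, 0.342 and 0.483 in untreated Tmem173fl/fl, 0.316, 0.318 and 0.313 in untreated Tmem173iΔmye, 3.69, 0.975 and 3.68 in colitic Tmem173fl/fl and 0.679, 0.809 and 0.527 in colitic Tmem173iΔmye libraries. The 4 groups did not overlap, and Ptgs2 outweighed Ptgs1 in 2 libraries, both of colitic Tmem173fl/fl mice. In log2 terms DSS raised the mean ratio by 2.47 in Tmem173fl/fl and by 1.07 in Tmem173iΔmye mice, and the colitic genotypes differed by -1.84. Two-sided exact permutation tests gave p = 0.1 for each, which is the smallest that 3 against 3 allows. The untreated genotypes differed by -0.44 with the same p.

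The ratio of the inducible cyclooxygenase to the breakdown enzyme spanned more. Ptgs2 to Hpgd was 0.0376, 0.0203 and 0.0264 in untreated Tmem173fl/fl and 0.0218, 0.0168 and 0.0261 in untreated Tmem173iΔmye libraries, which overlapped (log2 difference -0.36, exact permutation p 0.4). With DSS it was 3.23, 0.920 and 2.33 in Tmem173fl/fl and 0.219, 0.112 and 0.0570 in Tmem173iΔmye libraries. The colitic groups lay apart from each other and from the untreated ones. The log2 differences were 6.13 for DSS in Tmem173fl/fl, 2.40 for DSS in Tmem173iΔmye and -4.09 between colitic genotypes, each at p = 0.1 in the same exact permutation test.

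**Figure D3:**
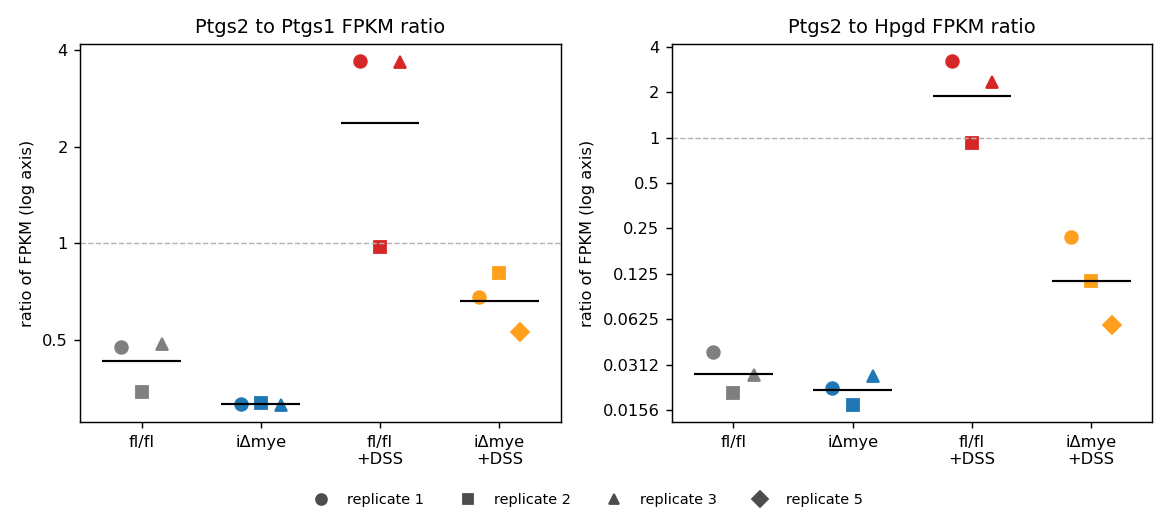
Ratio of Ptgs2 to Ptgs1 FPKM (left) and of Ptgs2 to Hpgd FPKM (right) in each library on log axes, by group, with the bar at the geometric mean of 3 libraries and the dashed line at 1. The Ptgs2 to Hpgd ratio runs from 0.920 to 3.23 in colitic Tmem173fl/fl libraries and from 0.0570 to 0.219 in colitic Tmem173iΔmye ones.

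The steps around these genes were read from lists of 82 tested genes, and brackets give the log2 fold change and then the adjusted p of edgeR. DSS in Tmem173fl/fl mice called 36 of them (43.9%, beside 22.5% of all genes), DSS in Tmem173iΔmye mice 9 (11%, beside 2.08%), the untreated genotypes 0 and the colitic genotypes 14 (17.1%, beside 2.81%). The last count fell to 0 without replicate 1, 8 without replicate 2 and 3 without replicate 3 of colitic Tmem173fl/fl mice and to 1 without replicate 2 of colitic Tmem173iΔmye mice, and rose to 22 without replicate 1 of that group. Over all genes those fits called 27, 204, 123, 46 and 1593 in that order, against 678 in the main fit. For DSS in Tmem173iΔmye mice the list count was 2 without any 1 of the untreated libraries and 18 without replicate 5. Over all genes the same fits called 51 to 72 and 1469, against 501 in the main fit. Of 13 genes for phospholipases, lipases and a phospholipase-activating protein (Plaa) around the release of arachidonic acid, 2 rose with DSS in Tmem173fl/fl mice, Mgll (1.68, edgeR adjusted p 0.001546) and Pla2g15 (1.2, 0.006444), and 5 fell, led by the phospholipases Pla2g2a (-3.77, 0.0003758), Pla2g10 (-2.22, 1.751e-05) and Pla2g4f (-2.03, 0.002214). Of all genes 14.9% were called higher, near the share of this list, and 7.61% lower. In colitic Tmem173iΔmye mice 4 of the 13 were higher than in Tmem173fl/fl mice with colitis (0.822% of all genes). Secreted Pla2g2a was at 0.154 to 0.745 FPKM in colitic Tmem173fl/fl and 7.21 to 33.5 in colitic Tmem173iΔmye libraries (5.40, SE 0.76, edgeR adjusted p 0.01671), beside 3.55 to 7.61 in untreated Tmem173fl/fl ones. Pla2g4f (2.77, 0.01795) and Pla2g10 (1.67, 0.03323) were higher too. The interaction was called positive for 4 of the 13 (0.934% of all genes). Largest were those of Pla2g2a (5.34, edgeR adjusted p 0.01218), Pla2g4f (3.18, 0.01344) and Pla2g10 (1.65, 0.03106). The list's median log2 fold change was 0.12 for DSS in Tmem173fl/fl and -0.03 between colitic genotypes. Pla2g4a, the cytosolic phospholipase that supplies cyclooxygenases in many cells, was at 6.28 to 9.39 FPKM untreated and 7.55 to 9.36 colitic in Tmem173fl/fl mice (0.12, edgeR adjusted p 0.6243), and was named after its values were seen.

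Of 8 other prostanoid synthase and reductase genes tested, Akr1c18 rose with DSS in Tmem173fl/fl mice (2.17, edgeR adjusted p 0.0243) and Akr1c14 (-2.81, 1.217e-06), Cbr3 (-1.31, 0.01408) and Cbr1 (-1.16, 0.00194) fell. Among all genes 14.9% were called higher, near the 1 of 8 here, and 7.61% lower. The carbonyl reductase genes Cbr3 (-1.70, edgeR adjusted p 0.03558) and Cbr1 (-1.08, 0.02532) fell in Tmem173iΔmye mice as well (0.597% of all genes were called lower there). Akr1c14 was higher in colitic Tmem173iΔmye than in Tmem173fl/fl mice with colitis (1.91, edgeR adjusted p 0.0237, 0.822% of all genes higher). The Akr1c14 interaction of 1.83 was called too (edgeR adjusted p 0.03405, 0.934% of all genes as positive). Of 7 other receptor genes, Ptgir, the prostacyclin receptor, was at 0.375 to 0.435 FPKM in untreated and 3.68 to 4.42 in colitic Tmem173fl/fl libraries (3.35, edgeR adjusted p 5.495e-06), and at 0.817 to 1.77 in colitic Tmem173iΔmye ones (-1.69 between colitic genotypes, 0.03323). Its interaction of -1.74 was not called (edgeR adjusted p 0.06912). Ptgdr was called higher with DSS in Tmem173fl/fl mice too, at no more than 0.292 FPKM. That made 2 of the 7 higher, beside 14.9% of all genes. Of 6 transport and breakdown genes, Slco3a1 alone was called with DSS in Tmem173fl/fl mice (1.31, edgeR adjusted p 0.0005065). That is near the share of all genes called higher (14.9%). Of 12 leukotriene and lipoxygenase genes tested 6 rose there (14.9% of all genes), led by Fpr2 (3.94, edgeR adjusted p 1.775e-05), Alox5ap (3.25, 6.41e-06) and Ltb4r1 (2.53, 0.0007313). Alox5ap, which hands arachidonic acid to the 5-lipoxygenase, was lower in colitic Tmem173iΔmye than in Tmem173fl/fl mice with colitis (-1.59, edgeR adjusted p 0.02503), and its interaction of -2.21 was called (0.009384). Among all genes 1.99% were called lower between colitic genotypes, and 1.61% had a called negative interaction.

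Of 16 tested genes known to induce Ptgs2 or to carry that signal, 9 rose with DSS in Tmem173fl/fl mice (14.9% of all genes) and 6 in Tmem173iΔmye mice (1.48% of all), and 5 were lower in colitic Tmem173iΔmye than in Tmem173fl/fl mice with colitis (1.99% of all). Ereg, a growth factor of the EGF family, was at 1.34 to 1.82 FPKM untreated and 64.8 to 226.4 colitic in Tmem173fl/fl mice (6.69, edgeR adjusted p 6.67e-06) and at 21.5 to 27.8 in colitic Tmem173iΔmye mice (-2.75 between colitic genotypes, 0.02068). Il6 was near the detection floor in untreated mice and at 4.06 to 16.2 FPKM in colitic Tmem173fl/fl and 1.61 to 2.23 in colitic Tmem173iΔmye libraries (-2.36, edgeR adjusted p 0.03462). Il1a rose in both genotypes (3.64 and 3.16, edgeR adjusted p 0.0001927 and 0.0114), and between colitic genotypes it overlapped (-1.29, 0.1707). Cebpb, a transcription factor of the C/EBP family, was at 71.3 to 95.3 FPKM in colitic Tmem173fl/fl and 17.9 to 26.2 in colitic Tmem173iΔmye libraries (-1.88, SE 0.21, edgeR adjusted p 0.009901). Tnf was called with DSS in Tmem173iΔmye mice (1.62, edgeR adjusted p 0.03597) and not in Tmem173fl/fl mice (0.86, 0.07432), and its interaction of 0.84 (SE 0.48) was not called (0.3804). Between colitic genotypes Tnf (1.18, edgeR adjusted p 0.09686), Areg (1.15, 0.05601) and Hbegf (1.26, 0.06616) were not called and had higher FPKM ranges in Tmem173iΔmye mice. These 3 were named after their values were seen. Of the 16, these 3 had higher ranges (10.8% of all genes) and 7 lower ones (15.8%), the 5 called and the uncalled Tnfrsf1a (-0.55) and Rela (-0.41). The interaction was called for 4 of the 16 (1.61% of all genes as lower), led by Ereg (-3.06, edgeR adjusted p 0.01228), Cebpb (-2.27, 0.007119) and Cebpd (-1.53, 0.03903). The study's text names Cebpb, Cebpd, Il6, Il1b and Tnf, so they are not an independent choice. By quantitative PCR it reported a weaker rise of Il1b, Tnf and Il6 in Tmem173iΔmye mice with acute colitis. In the libraries here Il6 was lower too, Il1b overlapped (-0.83, edgeR adjusted p 0.4028) and Tnf lay the other way without a call.

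Downstream of the receptors, 7 of 20 G protein and cyclic AMP genes rose with DSS in Tmem173fl/fl mice (14.9% of all genes), led by the phosphodiesterase Pde4b (3.04, edgeR adjusted p 2.382e-06), the immediate-early gene Nr4a1 (2.87, 0.0001095) and the adenylyl cyclase Adcy4 (2.34, 2.332e-05). In Tmem173iΔmye mice (1.48% of all higher) Pde4b was called (1.49, edgeR adjusted p 0.01233), while Adcy4, with ranges apart and a change of 1.54, was not (0.05563). Nr4a1 (-2.29, 0.04272) and Pde4b (-1.46, edgeR adjusted p 0.02083) were lower in colitic Tmem173iΔmye than in Tmem173fl/fl mice with colitis (1.99% of all). The interaction was called (1.61% of all genes as lower) for Nr4a2 (-2.26, edgeR adjusted p 0.04682), Pde4b (-1.48, 0.01384) and Adcy3 (-1.32, 0.04765), and not for Nr4a1 (-2.26, 0.0535).

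Markers of other cell types moved with these groups. Of all genes, 14.9% were called higher and 7.61% lower with DSS in Tmem173fl/fl mice, and 1.99% lower and 0.822% higher between colitic genotypes. Colon tissue RNA holds all cell types, so more cells of a type and more RNA per cell cannot be told apart. The summed FPKM of 6 fibroblast markers was 144.5 to 173.1 in untreated and 1017 to 1275 in colitic Tmem173fl/fl libraries, and 145.6 to 179.6 and 296 to 416.2 in the corresponding Tmem173iΔmye ones, with 6 of 6 called higher with DSS in Tmem173fl/fl mice and 5 of 6 lower between colitic genotypes. Neutrophil markers summed to 1.48 to 7.18, 429.6 to 636.7, 3.07 to 9.20 and 20.2 to 123.4 FPKM in the same order (6 of 6 higher and 4 of 6 lower), and Mmp8 among them was at 0 in untreated Tmem173iΔmye mice. Monocyte and macrophage markers summed to 109.8 to 135.8, 369.5 to 505.8, 107.4 to 176 and 132 to 321 FPKM (6 of 8 higher and 1 of 8 lower). Endothelial markers summed to 13.3 to 15.6, 58.2 to 78.7, 14.5 to 17.1 and 22.6 to 42.8 FPKM (6 of 6 higher and 2 of 6 lower). The markers that define colonic epithelium were present throughout, at 3832 to 4756, 1385 to 2440, 4027 to 4774 and 2996 to 3589 FPKM, with 4 of 6 lower with DSS in Tmem173fl/fl mice and 0 of 6 called between colitic genotypes. Of 6 colonocyte markers 5 were lower and 1 was higher with DSS in Tmem173fl/fl mice. Between colitic genotypes 3 of them were higher in Tmem173iΔmye mice and 0 lower. Their summed FPKM overlapped throughout, at 1659 to 2291, 1516 to 2147, 1815 to 2427 and 1211 to 2883 in the same order, and was lowest in replicate 5 of the colitic Tmem173iΔmye group. The part of these markers in the results above was not tested.

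Smaller lists were read in the same way. Between colitic genotypes 1 of 8 mast cell markers was lower, and of 8 tuft cell, 6 smooth muscle, 4 mesothelial, 5 T cell, 5 pancreas and 4 adipocyte markers 0 were called (edgeR). Mast cells, known for Hpgds, and tuft cells, known for Ptgs1 and Hpgds, had summed marker levels of 22.8 to 23.4 and 11 to 12.6 FPKM in colitic Tmem173fl/fl and of 11.7 to 16.7 and 3.86 to 9.69 in colitic Tmem173iΔmye libraries. Neither sum overlapped between the colitic groups, while Hpgds did. Mesothelial markers summed to 22.05, 6.39 and 19.3 FPKM in colitic Tmem173fl/fl libraries, lowest in replicate 2 as were Ptgs2 and Ptgis, to 5.94 to 7.34 in colitic Tmem173iΔmye ones and to 2.46 to 6.68 in untreated Tmem173fl/fl ones. With DSS in Tmem173fl/fl mice 3 of these 4 markers were higher, and their part in the Ptgs2 result was not tested. Pancreas markers summed to between 0 and 5901 FPKM over the 12 libraries, with a wide range in every group.

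Per 100 FPKM of summed fibroblast markers, a measure chosen after the values were seen, Ptgs1 stood at 4.01 to 4.60 in untreated and 2.47 to 2.87 in colitic Tmem173fl/fl libraries and at 2.10 to 4.26 in colitic Tmem173iΔmye ones. Ptgs2 stood at 1.5 to 2.17, 2.80 to 9.43 and 1.11 to 3.44, and Ptges at 1.55 to 1.59, 3.01 to 3.26 and 0.688 to 1.98. On that measure Ptgs1 and Ptgs2 overlapped between the colitic genotypes and Ptges did not. The overlap of Ptgs2 rested on replicate 2 of colitic Tmem173fl/fl mice, which had the 2.80.

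**Figure D4:**
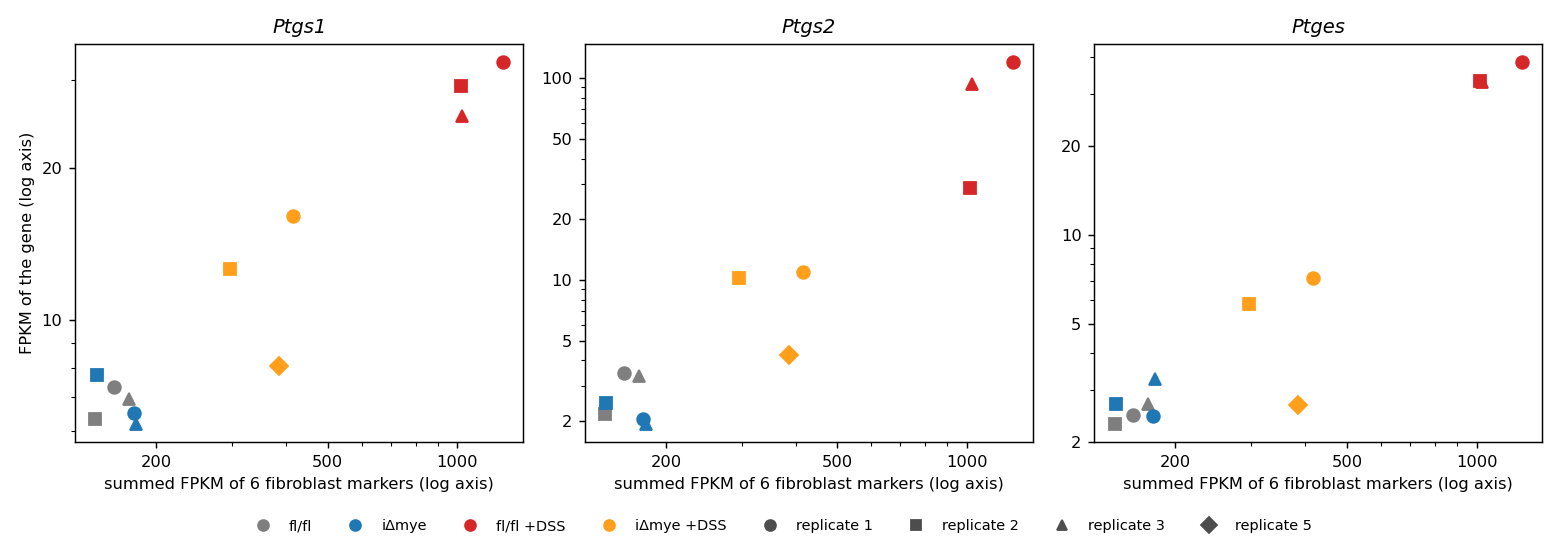
FPKM of Ptgs1, Ptgs2 and Ptges (log axes) against the summed FPKM of 6 fibroblast markers in each library, with colour for the group and shape for the replicate. Colitic Tmem173fl/fl libraries lie at 1017 to 1275 on the marker axis, colitic Tmem173iΔmye ones at 296 to 416.2 and untreated ones at 144.5 to 179.6.

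The genes whose pattern was most like each of 4 members were found among 14558 genes with a mean of at least 1 FPKM, by Pearson's r of log2(FPKM + 0.1) over the 12 libraries, which fall into groups and share their treatments. For Ptgs1 these were Pdgfra (0.996), Tmem176a (0.994), Tmem176b (0.994), Tenm3 (0.993) and Mmp2 (0.992), of which Pdgfra is in the fibroblast marker list. For Ptgs2 they were Inhba (0.981), Btbd3, Wnt5a and Slc7a8 (0.979 each) and Ptprn (0.976). Hpgd was most like Aftph (0.982), Dld and Mtch2 (0.979 each), Ssx2ip and Fmr1 (0.977 each). Ptger4 had Gm6542 (0.956), Noct (0.915), Cipc (0.885), Zbtb7c (0.872) and Gm14292 (0.868), the weakest likeness of the 4.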

How the data were processed

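Polyadenylated RNA from 12 mouse colons was sequenced, 1 library per labelled sample, and the titles of the samples gave their group and number. The study describes the Tmem173fl/fl controls as littermates and the 3 samples of a group as picked at random. No label says that shared numbers pair samples, and p-values measure the spread between these samples. Per the submitters' processing notes the tools were CASAVA 1.8, fastp, HISAT2 2.0.5, featureCounts 1.5.0-p3 and DESeq2 1.20.0 with GRCm38 (mm10). The annotation release and the use of strand in counting are not given in the sources used here. The authors deposited whole-number counts per gene and FPKM. The FPKM deposited by the authors equal count over length and library total times 1 constant per library (0.892 to 1.044). They also deposited group means, log2 fold changes and p-values of their own comparisons, which were not used.

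Counts were tested with edgeR 4.0.16 (glmQLFit and glmQLFTest, TMM scaling) in R 4.3.3. Only the groups compared entered a fit, the interaction used all 12 libraries, and p-values were adjusted over 24102 genes. The standard error of a log2 fold change is its size over the square root of F. Figures and summaries used Python 3.11.15 with pandas 2.3.3, numpy 2.4.6 and matplotlib 3.10.9. The tests were tried on simulated data with 200 of 24102 genes changed, each by 2 or 3 on the log2 scale, up or down. The changed genes were drawn from those with higher counts. Smaller changes, such as those near the size asked of a call, were not simulated. For the colitic genotypes edgeR recovered 92.5% of them and called 20 unchanged genes, and for the interaction it recovered 85.5% and called 15.

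The genes and lists were chosen with earlier results of these data known. All 10 genes are named, beside the 5 genes most like each of 4 members. From each list the rule was to name at most 3 called higher and 3 called lower with the largest change per comparison. Some list genes are named outside that rule, among them Tnf, Areg, Hbegf, Tnfrsf1a, Rela and Pla2g4a. Some uncalled values of list genes are given as well. Marker lists were used to look at other cell types. Alternatives were RLE scaling, DESeq2 1.42.0, no filter, 1 fit of all libraries, limma 3.58.1 on log2(FPKM + 0.1) and log2(FPKM + 1), a threshold without fold change, a block for the replicate number, and leaving out each library in turn. For the list genes these alternatives were added after the data were seen.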

Additional observations from a re-analysis of the deposited data

Results flagged for a closer look

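The DSS change of 3 genes differed between genotypes by the interaction term over 12 libraries (edgeR). The interaction was -2.87 for Ptges, whose log2 DSS change was 3.82 in Tmem173fl/fl and 0.88 in Tmem173iΔmye mice. For Ptgs2 it was -2.74, with DSS changes of 4.76 and 1.95. For Ptgs1 it was -1.20, with DSS changes of 2.10 and 0.83. With each of the 12 libraries left out in turn, Ptges kept its call in 12 fits, Ptgs2 in 3 and Ptgs1 in 1. Summed fibroblast and neutrophil marker levels moved with these genes, and their part was not tested.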

How the results depend on the processing

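With DSS in Tmem173fl/fl mice 7 of the 10 genes were called in each fit that left out a library. Among the list genes 34 to 38 were called there, against 36 in the main analysis and 55 at an adjusted p alone. With DSS in Tmem173iΔmye mice 1 of the 10 was called. DESeq2 and 1 fit of all 12 libraries called 2 there (Ptgs2 and Ptger2). The replicate block, which left replicates 3 and 5 out of the difference, called 2 as well (Ptgs2 and Ptges), and limma called 0 at either pseudocount. Leaving out a library gave 0 to 4 of the 10 and 2 to 18 list genes. Over all genes these fits called 51 to 1469, against 501. List genes called there (9) numbered 18 with DESeq2, 17 with no filter, 16 in the fit of all libraries, 20 with the replicate block and 2 with limma at either pseudocount. Calls over all genes (501) moved likewise, to 1137 with DESeq2, 1013 with no filter and 981 in the fit of all libraries. They were 1369 with the replicate block, 62 with limma at a pseudocount of 0.1 and 58 at 1. Between colitic genotypes limma called 1 of the 10 (Ptges) at either pseudocount, against 3, and of the list genes (14) DESeq2 called 22 and limma 3 at a pseudocount of 0.1 and 5 at 1. Over all genes DESeq2 called 1619 there, against 678. Leaving out a library gave 0 to 4 of the 10 and 0 to 22 list genes, and 27 to 1593 over all genes. For the interaction limma at 0.1 called 1 of the 10 and 8 of the list genes (13). Leaving out a library gave 1 to 4 and 7 to 20 (267 to 1728 over all genes, against 614). Without DSS 0 of the 10 and 0 of the list genes were called throughout.

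The ratios kept their direction with each library left out. Ptgs2 to Ptgs1 ran from 2.15 to 3.11 for DSS in Tmem173fl/fl, 0.92 to 1.23 for DSS in Tmem173iΔmye, -0.6 to -0.35 for untreated and -2.48 to -1.52 for colitic genotypes. Ptgs2 to Hpgd ran from 5.75 to 6.66, 1.91 to 2.88, -0.57 to -0.12 and -4.62 to -3.60.

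Signs turned for small log2 fold changes. Between colitic genotypes Tbxas1 was 0.00 with RLE scaling and 0.02 with the replicate block. The Ptges2 interaction was -0.04 with RLE scaling and with DESeq2, -0.06 with no filter and with limma at 0.1, -0.03 with limma at 1 and -0.10 with the block. That of Hpgds was -0.01 with no filter, -0.03 with limma at 0.1 and -0.01 at 1, and that of Tbxas1 was 0.00 with the block. With a library left out, the untreated differences of Ptgs1 (-0.11 to 0.06), Hpgd (-0.37 to 0.15), Hpgds (-0.01 to 0.22) and Ptger4 (-0.14 to 0.35), the colitic differences of Ptges2 (-0.32 to 0.02), Hpgds (-0.05 to 0.38) and Tbxas1 (-0.19 to 0.07), and the interactions of Ptges2 (-0.17 to 0.20), Hpgds (-0.13 to 0.27) and Ptger4 (-0.10 to 0.39) crossed 0. The causes were not tested.

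Replicate numbers were not taken as pairs: correlations of same-numbered libraries ran from -0.123 to 0.131. The replicate block changed 1 call count of the 10 genes, to 2, by calling Ptges with DSS in Tmem173iΔmye mice. Depth limits Ptger2, with 22 to 44 counts per untreated library.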
